A study of Mus musculus with 7 samples.

Results

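The genes examined here encode costimulatory and checkpoint molecules of antigen-presenting cells, which set how strongly a T cell answers once it has recognized antigen. The group comprised 9 of the 23361 genes in the expression table and was found there by gene name: Cd80, Cd86, Icosl, Cd40, Cd83, Tnfsf9, Cd274, Pdcd1lg2 and Havcr2. All 9 were quantified in all 7 libraries, and all 9 passed edgeR's expression filter, which kept 12858 genes. The libraries were made from macrophages of wild-type BALB/cJ mice, whose left sciatic nerve had been cut and at once repaired by suturing the stumps into a conduit. The tissue that had grown within the conduit, the regenerative bridge, was taken 5 days (3 libraries), 14 days (2 libraries) or 28 days (2 libraries) after repair. Macrophages were sorted from it as cells with F4/80, CD14, CD11b and CD16/32 on their surface and without the markers of other lineages. No library came from an uninjured nerve, so the 3 groups can be compared with each other only. The study states n = 3 per time point for its RNASeq, whereas days 14 and 28 had 2 libraries each here. The age of these mice, and whether a library stems from 1 animal or from a pool, are not given in the sources used here. The p-values therefore measure the spread between libraries, which may in part be technical.

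A T cell needs a second signal beside antigen, and the B7 proteins CD80 and CD86 give it by binding CD28. The same proteins also bind the inhibitory receptor CTLA-4. ICOS ligand acts on activated T cells through ICOS. CD40 is a receptor on the presenting cell that answers to CD40 ligand on helper T cells, and 4-1BB ligand (Tnfsf9) is a TNF family ligand that sustains activated T cells. CD83 marks activated antigen-presenting cells and keeps CD86 and MHC class II on their surface. PD-L1 (Cd274) and PD-L2 (Pdcd1lg2) are the ligands of the inhibitory receptor PD-1, and TIM-3 (Havcr2) is an inhibitory receptor that macrophages and dendritic cells carry themselves. Macrophages and Schwann cells of an injured nerve can present antigen, but the amount of each costimulatory transcript says nothing of the protein on the cell surface, which was not measured in these libraries.

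The members lie on 7 chromosomes, and 2 pairs share one. On GRCm38, the assembly also called mm10, Cd274 lies on chromosome 19 from 29367455 to 29388095 and Pdcd1lg2 from 29410919 to 29471161, both on the plus strand with 22.8 kb between them. Cd80 (chromosome 16, 38455561 to 38496335, plus strand) and Cd86 (chromosome 16, 36603869 to 36666081, minus strand) are 1789479 bases apart. The other members are Cd40 (chromosome 2, 165055627 to 165072948), Cd83 (chromosome 13, 43784775 to 43803132), Icosl (chromosome 10, 78069302 to 78083913), Havcr2 (chromosome 11, 46454935 to 46481255) and Tnfsf9 (chromosome 17, 57105325 to 57107757), all on the plus strand. These are spans of whole genes, exons and introns together, as annotated by GENCODE. Cd274, Pdcd1lg2 and Tnfsf9 each overlap 1 non-coding gene on the opposite strand (AC119228.1, A930007I19Rik and Gm11110). Only whole spans were compared, and whether exons overlap was not looked at. The use of strand in the counting is not stated, so reads from any shared exon stretch may have been counted for either gene.

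RefSeq promoter sequences of the GRCm38.p6 build were at hand for 5 of the 9 members. The 250 bases before the start site are printed for the 2 PD-1 ligand genes, which lie side by side and of which Pdcd1lg2 passed the test below, and for Havcr2, the other member that passed it. Lower case is plain sequence and capitals mark the motifs searched for.
Pdcd1lg2 (chr19:29410669-29410918, plus strand): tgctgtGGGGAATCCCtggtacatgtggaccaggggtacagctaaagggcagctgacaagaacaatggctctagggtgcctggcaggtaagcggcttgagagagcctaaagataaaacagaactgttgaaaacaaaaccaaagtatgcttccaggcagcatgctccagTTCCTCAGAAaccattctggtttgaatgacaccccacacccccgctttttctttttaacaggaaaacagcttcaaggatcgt
Cd274 (chr19:29367188-29367437, plus strand): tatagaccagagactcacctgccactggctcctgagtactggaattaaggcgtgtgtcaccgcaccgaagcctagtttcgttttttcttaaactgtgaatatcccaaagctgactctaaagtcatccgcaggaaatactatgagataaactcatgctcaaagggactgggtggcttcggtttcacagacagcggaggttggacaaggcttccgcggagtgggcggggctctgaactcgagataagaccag
Havcr2 (chr11:46454681-46454930, plus strand): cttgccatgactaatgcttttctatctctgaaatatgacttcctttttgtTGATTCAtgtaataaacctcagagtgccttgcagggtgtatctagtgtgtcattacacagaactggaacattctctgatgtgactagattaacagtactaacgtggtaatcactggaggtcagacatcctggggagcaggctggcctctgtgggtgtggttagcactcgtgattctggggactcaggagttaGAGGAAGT
Both strands were searched for 5 motifs, and none overlapped another in the members. The STAT6 motif TTCNNNNGAA was found in the Pdcd1lg2 window, 82 to 73 bases before the start site, and in 5.85% of all 32851 promoter windows of this length. The Pdcd1lg2 window also held a match to the NF-kB consensus 244 to 235 bases before the start site, as did 3.9% of all windows. In the Havcr2 window, an AP-1 motif (TGANTCA, 6.75% of all windows) lay 200 to 194 bases and a PU.1 motif (GAGGAAGT, 2.44%) 8 to 1 bases before the start site. The Cd80 window had 1 AP-1 motif, while Icosl and Cd274 had none of the 5. The Cd80 window (chr16:38458683-38458932) precedes a RefSeq start site that lies inside the GENCODE span given above. That of Icosl (chr10:78069118-78069367) also reaches into the span of its gene. The IRF motif GAAANNGAAA (2.98% of all windows) was in none of the 5 windows. These matches are descriptions of letters in a window and not binding sites.

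The libraries held between 18027190 and 35247116 gene-assigned fragments, the deepest being day 28 replicate 1. With single-end reads, a fragment is a read. The summed level of 9 macrophage markers lay between 16027 and 22003 FPKM, where FPKM is the number of fragments scaled to transcript length and library size. Most of this sum was Lyz2 (10675 to 18376 FPKM). Of the 9 macrophage markers, 4 fell between days 5 and 28 (Emr1, Cd14, Fcgr1 and Aif1) and none rose. The lineage-defining markers Cd3d, Cd3e, Cd3g, Cd8a and Pax5 had at most 10 fragments in any library. Over the T cell list the sum was 6.94 to 7.68 FPKM at day 5, 18.3 to 20.9 at day 14 and 17.9 to 18.5 at day 28, nearly all of it Cd2 and Cd4. With edgeR, Cd4 rose between days 5 and 14 (adjusted p = 0.0157), and both Cd2 (0.036) and Cd4 (0.0471) between days 5 and 28, calls that stood in 13, 8 and 6 of 16 alternatives. The Schwann cell sum was 10.7 to 11.5, 12.7 to 19.9 and 17.7 to 19.9 FPKM over time, and that of eosinophils 1.68 to 2.18, 1.72 to 5.69 and 3.21 to 3.33 FPKM. Mbp of the Schwann cell list and Siglec5 of the eosinophil list rose between days 5 and 28 (edgeR adjusted p = 0.0296 and 0.0105, called in 10 and 13 of 16 alternatives). The B cell sum was 6.51 to 9.3, 6.26 to 10.8 and 4.42 to 5.08 FPKM, and the NK cell sum did not exceed 0.988 FPKM. The endothelial sum ran from 9.66 to 15.7 FPKM at day 5, 4.25 to 10.5 at day 14 and 2.23 to 4.17 at day 28. Its fall was mostly that of Kdr, at 11 and 1.33 FPKM at days 5 and 28 (edgeR adjusted p = 0.0029). Tek of the same list rose (edgeR adjusted p = 0.0208) at 0 to 46 fragments per library, called in 9 of 16 alternatives. Cdh5 (1.41 and 1.29 FPKM) was not called. Neutrophil markers summed to 263 to 291, 525 to 535 and 118 to 262 FPKM at days 5, 14 and 28, mostly S100a8 and S100a9, which monocytes also express. Mmp8 of the same list instead fell, with means of 4.92, 1.62 and 0.811 FPKM. Its edgeR adjusted p was 0.0184 between days 5 and 14 and 0.00101 between days 5 and 28. These calls stood in 13 and 16 of 16 alternatives. The part of these cells in the changes below was not tested. In bulk RNA, fewer cells of a type and less RNA per cell cannot be told apart.

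The order of the 9 genes by level was largely kept over time. Cd83 was the highest at each time point, with a mean of 259 ± 25.3 FPKM (SD, n = 3) at day 5, 250 ± 90.9 (n = 2) at day 14 and 318 ± 29.2 (n = 2) at day 28. It stood above 97.2% of the tested genes at day 5. Tnfsf9 came next at 148, 103 and 87.3 FPKM, followed by Cd274 at 75.1, 74.9 and 80.7 FPKM. The libraries of Tnfsf9 and Cd274 did not overlap at day 5 but did at days 14 and 28. Cd86 came after Cd274 at each time point (47.5, 40.5 and 34.4 FPKM). Cd40, Cd80, Havcr2 and Icosl followed between 8.64 and 33.4 FPKM. At day 5, the neighbours Cd80 and Havcr2, and Havcr2 and Icosl, overlapped. At day 14 each gene from Tnfsf9 down to Icosl overlapped with the next. At day 28 Havcr2 overlapped with Cd40, and Cd40 with Cd80. Pdcd1lg2 was last throughout at 0.643, 0.981 and 1.63 FPKM and was above 16.4%, 18% and 23.4% of the tested genes.

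**Figure D1:**
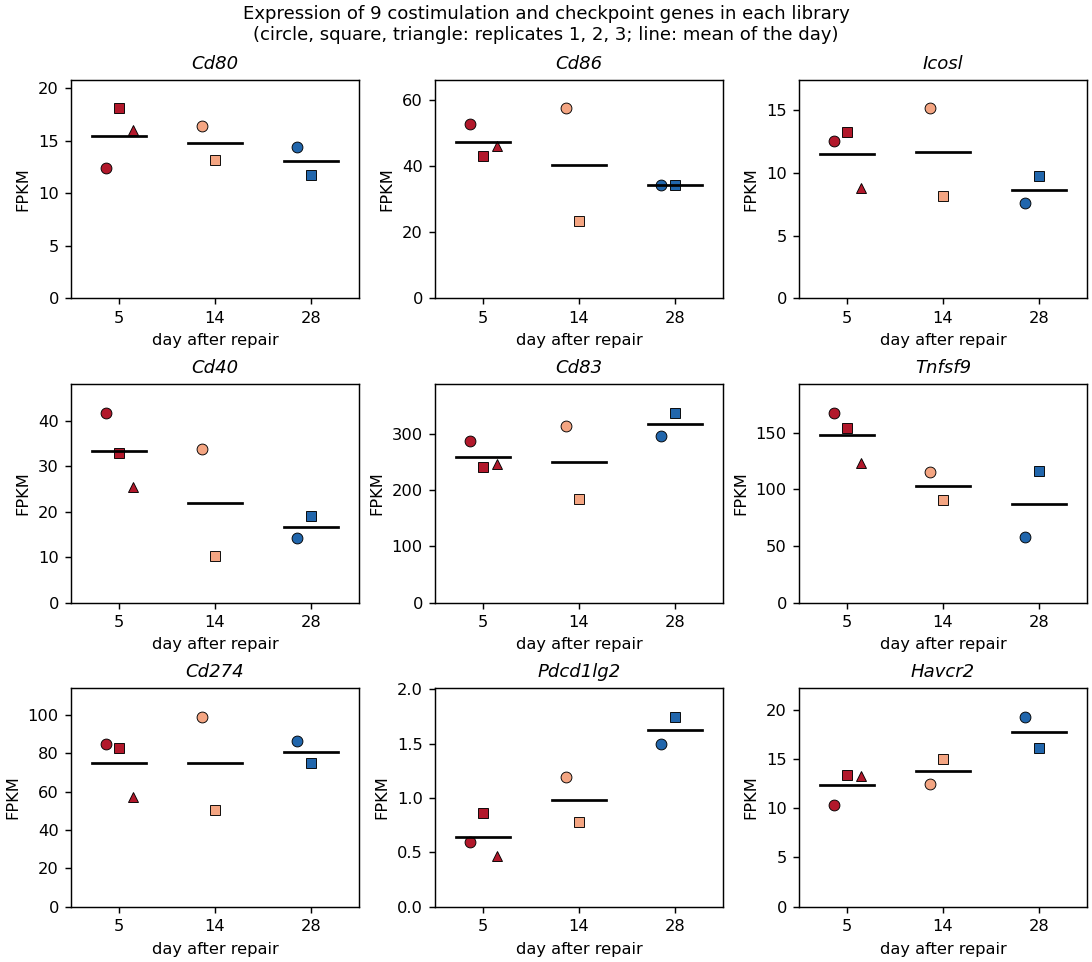
FPKM of each of the 9 genes in each library (y axis, linear and starting at 0) by day after repair (x axis), with 1 panel per gene. Symbols are libraries and lines are the means of a day. Pdcd1lg2 and Havcr2 were higher in both day 28 libraries than in every earlier library, and the day 14 libraries of Cd40 and Cd86 lay far apart.

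Whether expression of these genes changed between time points was tested with edgeR's quasi-likelihood test on the fragments, with adjustment over all 12858 genes. Between days 28 and 5, 2 of the 9 members were called at an adjusted p under 0.05, Pdcd1lg2 and Havcr2, both higher at day 28. Of all genes tested, 15.2% were called in this comparison, and 7.74% were called higher. No member was called between days 14 and 5, where 4.78% of all genes were, or between days 28 and 14, where 0.0622% were. At an unadjusted p under 0.05, 4 members differed between days 28 and 5 (31.5% of all genes), and none did in the other comparisons (24% and 12.2%). DESeq2 called 3 members between days 28 and 5 and limma 1, and both called 0 in each of the others. Of all genes, DESeq2 called 2485 between days 28 and 5 and the 2 limma fits 1802 and 1744. The median log2 fold change of the 9 members was -0.05 from day 5 to 14, -0.16 from day 14 to 28 and -0.22 from day 5 to 28, where all genes tested had medians of 0.03, 0.01 and 0.03. Libraries of days 28 and 5 did not overlap for 6 members, which was the case for 51.5% of all genes. Of these, 3 were higher at day 28 (26% of all genes) and 3 lower (25.6%). For days 14 and 5 this held for 1 member, Tnfsf9, which was lower at day 14 (43.2% of all genes, 21.4% lower), and for days 28 and 14 for Pdcd1lg2 and Havcr2, both higher at day 28 (39% of all genes, 19.3% higher).

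**Figure D2:**
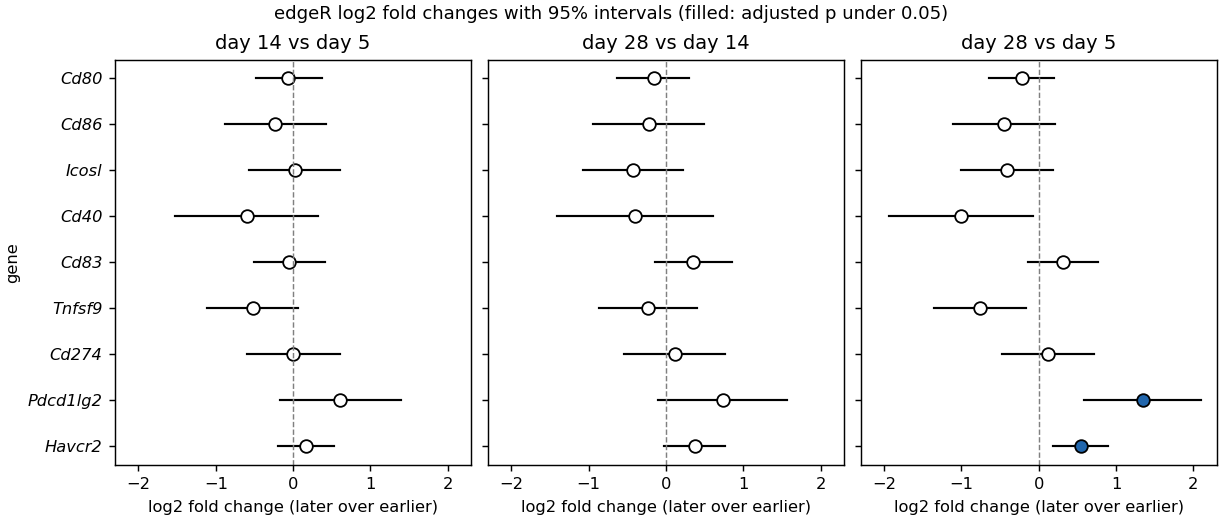
Log2 fold changes of the 9 genes (x axis, later over earlier day) from edgeR with 95% intervals as lines, in the 3 pairwise comparisons. Filled circles are genes called at an adjusted p under 0.05, which were Pdcd1lg2 and Havcr2 between days 28 and 5.

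Of the PD-1 ligands, Pdcd1lg2 rose over time. Pdcd1lg2, which encodes PD-L2, was measured at 0.6, 0.861 and 0.468 FPKM in day 5 replicates 1, 2 and 3, at 1.19 and 0.776 FPKM in day 14 replicates 1 and 2, and at 1.5 and 1.75 FPKM in day 28 replicates 1 and 2. Both day 28 libraries were above all 5 earlier ones, and the libraries of days 5 and 14 overlapped. These levels rest on few reads, 33 to 57 fragments at day 5, 56 to 69 at day 14 and 108 to 187 at day 28. Pdcd1lg2 rose 2.55-fold from day 5 to day 28 (log2 fold change 1.35, SE 0.34, 95% interval 0.59 to 2.10, edgeR adjusted p = 0.0276). The step to day 14 (log2 fold change 0.61, edgeR adjusted p = 0.316) and the one from there to day 28 (0.74, adjusted p = 0.459) did not pass. The call was lost without day 5 replicate 1 (adjusted p = 0.0948), day 5 replicate 3 (0.0814), day 28 replicate 1 (0.107) or day 28 replicate 2 (0.109), with log2 fold changes of 1.17 to 1.61 over all 7 omissions. Its mean stayed under 5 FPKM, the minimum that the study's stringent criteria set beside a 2-fold change.

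Cd274, which encodes PD-L1, was not called in any comparison. Its level was 85, 82.8 and 57.4 FPKM in the day 5 libraries, 99.2 and 50.5 at day 14, and 86.7 and 74.8 at day 28. The lowest and the highest value of the gene were both from day 14, and all 3 days overlapped. The difference between days 28 and 5 was 0.12 on the log2 scale (SE 0.26, 95% interval -0.48 to 0.71, edgeR adjusted p = 0.797), an interval that still allows a 1.64-fold rise. The earlier and the later step had edgeR adjusted p values of 0.998 and 0.903. As a description of the balance between the 2 PD-1 ligands, the FPKM ratio of Cd274 to Pdcd1lg2 was 142, 96.2 and 123 in the day 5 libraries, 83.7 and 65 at day 14, and 57.6 and 42.8 at day 28. The ratio was lower in each later group, with no overlap between the groups. Its mean log2 value was 6.89, 6.21 and 5.63, and the largest SD within a day was 0.30. The ratio is given as a description and was not tested.

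PD-L2 is also known as a product of mature dendritic cells, and a list of 7 of their markers was read beside it. The summed FPKM of this list was 23.8, 29.8 and 12 in the day 5 libraries, 45.8 and 20.8 at day 14, and 36.1 and 65.8 at day 28. Of the 6 markers tested, 2 rose between days 5 and 28 and none fell. These were Ccr7, the receptor that guides dendritic cells to lymph nodes (log2 fold change 1.43, edgeR adjusted p = 0.04), and Socs2, an inhibitor of cytokine signals (1.45, adjusted p = 0.0193). The chemokine gene Ccl22 made up much of the sum (7.67, 13.2 and 21 FPKM at days 5, 14 and 28) and was not called. Apol7c was at or near 0, with at most 1 fragment. The calls of Ccr7 and Socs2 were kept in 2 and 3 of the 7 fits that left out 1 library, with adjusted p up to 0.236 and 0.145, and that of Ccr7 was lost with DESeq2 and both limma fits. Over the 7 libraries, log2 FPKM of Pdcd1lg2 and of the sum had a Pearson r of 0.92 (Spearman's rho 0.93). It was 0.62 for Cd274 (rho 0.57) and 0.68 for Cd83 (rho 0.82). This is a description over points that share time point and depth. A second list, of 7 dendritic cell markers, summed to 4.71 to 5.37, 4.18 to 10.6 and 7.77 to 8.32 FPKM over time, with no gene called. Most of this second sum was Cd209a (means of 2.97, 4.64 and 5.07 FPKM). The highest values of Flt3, Zbtb46, Xcr1 and Clec9a in any library were 0.616, 1.62, 0.742 and 0.341 FPKM. The part of dendritic cells in the change of Pdcd1lg2 was not tested.

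**Figure D3:**
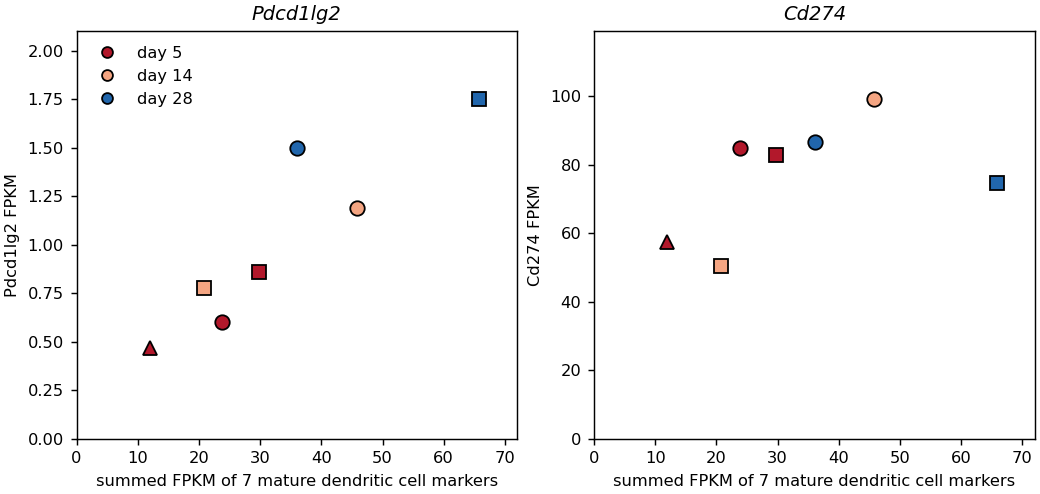
FPKM (y axis) of Pdcd1lg2 (left panel) and Cd274 (right panel) against the summed FPKM of 7 mature dendritic cell markers (x axis) in each of the 7 libraries. Points are coloured by day, with circles, squares and triangles for replicates 1, 2 and 3. Pdcd1lg2 ranged from 0.468 FPKM at a sum of 12 to 1.75 FPKM at a sum of 65.8, whereas Cd274 was 57.4 and 74.8 FPKM in the same libraries.

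Havcr2, which encodes TIM-3, was the second member to rise. Its level was 10.3, 13.4 and 13.3 FPKM in the day 5 libraries, 12.5 and 15 at day 14, and 19.3 and 16.1 at day 28. Both day 28 libraries exceeded every earlier one. The rise from day 5 to day 28 was 1.45-fold (log2 fold change 0.54, SE 0.16, 95% interval 0.19 to 0.89, edgeR adjusted p = 0.0476). This call was close to the threshold. It was lost without day 5 replicate 1 (adjusted p = 0.142), 2 (0.0852) or 3 (0.0815), without day 28 replicate 1 (0.28) or 2 (0.0741), with 2 other library scalings (0.0505 and 0.051) and with both limma fits (0.0726 and 0.0709), and it stood in 6 of 16 alternatives. The rise was under the 2-fold limit of the study's stringent criteria. The change from day 14 to day 28 was 0.37 on the log2 scale (edgeR adjusted p = 0.431).

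The ligands of TIM-3 and of the related inhibitory receptors TIGIT, BTLA and LAG-3 changed in different directions. Of 8 genes tested, 1 rose and 2 fell between days 5 and 28, and the median log2 fold change was -0.21. Lgals9, whose product galectin-9 binds TIM-3, fell from 151 to 85.3 FPKM (log2 fold change -0.81, SE 0.18, edgeR adjusted p = 0.0201). Tnfrsf14, which encodes the BTLA ligand HVEM, fell from 26.4 to 15.5 FPKM (-0.76, SE 0.16, adjusted p = 0.0162). Lgals3, a galectin abundant in macrophages and a LAG-3 ligand, rose from 980 to 1345 FPKM (0.47, SE 0.13, adjusted p = 0.0366). Their calls were kept in 3, 4 and 2 of the 7 fits without 1 library, with adjusted p of up to 0.113, 0.115 and 0.196, and that of Lgals3 was lost with both limma fits. Pvr, which encodes the TIGIT ligand CD155, was at 65.8 FPKM at day 5 and 43.9 at day 28 (edgeR adjusted p = 0.0539). The TIM-3 ligand genes Hmgb1 (66.6 and 70.7 FPKM) and Ceacam1 (18.7 and 17.3 FPKM) were not called, and no fragment of Fgl1 was found.

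Cd80 and Cd86, the classical B7 pair, were not called in any comparison. Cd80 had 12.4, 18.1 and 16 FPKM in the day 5 libraries, 16.4 and 13.2 at day 14, and 14.4 and 11.8 at day 28. The 3 days overlapped, and the interval of the difference between days 28 and 5 ran from -0.64 to 0.20 on the log2 scale. Cd86 had 53, 43.2 and 46.3 FPKM at day 5, 57.6 and 23.4 at day 14, and 34.5 and 34.4 at day 28. Both day 28 libraries were below all day 5 libraries, but the 2 day 14 libraries spanned the whole range. The log2 fold change from day 5 to day 28 was -0.45 (SE 0.29, edgeR adjusted p = 0.329). Cd86 was the more abundant of the pair in every library, with FPKM ratios to Cd80 of 4.29, 2.38 and 2.9 at day 5, 3.51 and 1.77 at day 14, and 2.39 and 2.92 at day 28. These ratios overlapped between all days. Icosl had 12.5, 13.2 and 8.81 FPKM at day 5, 15.1 and 8.11 at day 14, and 7.59 and 9.69 at day 28, with overlap between all days and an edgeR adjusted p of 0.328 or more in each comparison.

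Among the other B7 relatives, Cd276 (B7-H3), an immune checkpoint ligand that many non-lymphoid cells carry, was the exception. It was at 1.35 ± 0.43 FPKM (SD, n = 3) at day 5, with a range of 0.963 to 1.81, and at 3.13 to 8.79 and 6.6 to 10.6 FPKM in the libraries of days 14 and 28. It rose between days 5 and 14 (log2 fold change 2.17, edgeR adjusted p = 0.0273) and between days 5 and 28 (2.7, SE 0.42, adjusted p = 0.00462). The second call was lost only without day 28 replicate 1 (adjusted p = 0.0559), the first in 5 of the 7 fits without 1 library (up to 0.0998), with both limma fits and in the fit on the 2 time points alone, so that it stood in 7 of 16 alternatives. Fibroblasts, which the sort was set to remove by Thy1.2, express Cd276, and the summed fibroblast markers were 21.5 to 58.8, 61.8 to 174 and 25 to 42.6 FPKM at days 5, 14 and 28. The part of fibroblasts in the changes of Cd276 was not tested. Vsir (4632428N05Rik in the table), which encodes VISTA, had means of 84.5, 94.8 and 94.3 FPKM without a call. Vtcn1 and Btnl2 had at most 10 fragments in any library, and no fragment was assigned to Btn1a1 or Btn2a2.

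Cd40 was the member with the widest spread. It had 41.8, 32.8 and 25.5 FPKM in the day 5 libraries, 33.8 and 10.2 at day 14, and 14.1 and 19 at day 28. The day 28 libraries were below all day 5 libraries, while day 14 held a value within the day 5 range and the lowest value of all. The ratio of the day 28 mean to the day 5 mean was 0.496, but the log2 fold change of -1.01 (SE 0.42, 95% interval -1.94 to -0.07) did not pass in edgeR (adjusted p = 0.135). Without day 14 replicate 1 or 2, libraries that enter this comparison only through the shared estimate of the spread, the adjusted p was 0.00478 and 0.005. The same omissions brought Cd86 to adjusted p values of 0.0181 and 0.0184 and Tnfsf9 to 0.0447 and 0.0472.

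The genes that carry the CD40 signal were described as a group of 12, all of them tested. From day 5 to day 28, 3 fell and 1 rose, and 10 of the 12 had a lower estimate at day 28 (median log2 fold change -0.37, all genes 0.03). The 3 that fell belong to the non-canonical NF-kB route or its targets. Nfkb2, the precursor of its p52 subunit, fell from 161 to 84.9 FPKM (log2 fold change -0.92, SE 0.22, edgeR adjusted p = 0.025). Relb, its partner, fell from 72.5 to 39.9 FPKM (-0.85, SE 0.19, adjusted p = 0.0195), and Birc3, which encodes the ubiquitin ligase cIAP2, from 102 to 63.5 FPKM (-0.67, SE 0.15, adjusted p = 0.0212). Their calls were kept in 3, 3 and 2 of the 7 fits without 1 library (adjusted p up to 0.184, 0.152 and 0.146). Traf5, an adaptor of CD40 and of other TNF receptors, rose from 6.59 to 24 FPKM (1.88, SE 0.17, adjusted p = 7.06e-04) and was called in all 7 of these fits. It was also called between days 5 and 14 (0.84, edgeR adjusted p = 0.0365), as was Map3k14, the kinase NIK (0.68, adjusted p = 0.0491). These 2 calls held in 1 and 3 of the 7 fits (adjusted p up to 0.117 and 0.145), and in 7 and 6 of all 16 alternatives. That of Traf5 was also lost in the fit on the 2 time points alone, and that of Map3k14 with 2 other library scalings and both limma fits. Traf1 was at 68.4 FPKM at day 5 and 35.7 at day 28 (adjusted p = 0.0626), and Tnfaip3 at 326 and 262 FPKM (adjusted p = 0.328).

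Tnfsf9, the ligand of 4-1BB, had 168, 154 and 123 FPKM in the day 5 libraries, 115 and 90.3 at day 14, and 58.4 and 116 at day 28. All 4 later libraries were below all 3 day 5 libraries, though day 28 replicate 2 was as high as day 14 replicate 1. The log2 fold change was -0.52 from day 5 to day 14 (SE 0.26, edgeR adjusted p = 0.258) and -0.76 from day 5 to day 28 (SE 0.26, 95% interval -1.35 to -0.16, adjusted p = 0.0832), so neither passed. The value depended on the day 28 library: it was -0.34 without replicate 1 (adjusted p = 0.371) and -1.33 without replicate 2 (adjusted p = 0.0213). DESeq2 called the difference (adjusted p = 0.0163). Of the other TNF family ligands for T cells, 0 of 5 tested were called between any days with edgeR, while 2 had an unadjusted p under 0.05 between days 28 and 5, and DESeq2 and limma each called 1. Tnfsf14 (LIGHT), a ligand of HVEM, was the most abundant at 35.8, 25.4 and 15.8 FPKM (edgeR adjusted p = 0.168 between days 28 and 5). The others, Tnfsf18, Tnfsf15, Tnfsf4 and Tnfsf8, had means of at most 2.41 FPKM, and Cd70 had no fragment.

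Cd83, the most abundant member, was not called in any comparison. It had 288, 242 and 247 FPKM in the day 5 libraries, 314 and 185 at day 14, and 297 and 338 at day 28. Both day 28 libraries were above the day 5 libraries, by a log2 fold change of 0.31 (SE 0.20, 95% interval -0.14 to 0.76, edgeR adjusted p = 0.329), and day 14 included the lowest value of all. Genes that regulate how long these proteins stay on the surface were not called either. The ubiquitin ligases March1 and March8, which remove CD86 and MHC class II, and Cmtm6 and Cmtm4, which stabilize PD-L1, were tested, and 0 of 4 were called in any comparison by edgeR, DESeq2 or limma. March1 was at 14, 17 and 15.4 FPKM and Cmtm6 at 44.5, 46.1 and 40.7 FPKM at days 5, 14 and 28. At an unadjusted p under 0.05, 1 of the 4 differed in edgeR between days 28 and 5.

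The 2 day 14 libraries differed more in these genes than in most others. In day 14 replicate 1, 8 of the 9 members were higher than in replicate 2, and 6 of them by at least 1.5 times. Of the 12790 tested genes with a value above 0 in both libraries, 50.6% were higher in replicate 1 and 13.6% by at least 1.5 times. The FPKM ratio was 3.32 for Cd40, 2.46 for Cd86, 1.97 for Cd274, 1.87 for Icosl, 1.69 for Cd83 and 1.53 for Pdcd1lg2. It was 1.27 for Tnfsf9, 1.25 for Cd80 and 0.831 for Havcr2, the one member that was higher in replicate 2. With library sizes set by TMM, the same 8 and 6 members were counted, beside 49.3% and 13.2% of all genes. These are ratios of single libraries with no replicate check.

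In its whole profile, day 14 replicate 1 was closer to day 5 and replicate 2 closer to day 28. The mean Pearson correlation of replicate 1 was 0.9769 with the day 5 libraries and 0.9581 with the day 28 libraries, and that of replicate 2 was 0.9516 and 0.9759, across 7556 genes, which are not independent replicates. Cell type markers also differed between the 2 libraries. The summed FPKM in replicates 1 and 2 was 174 and 61.8 for fibroblasts, 45.8 and 20.8 for mature dendritic cells, 10.6 and 4.18 for dendritic cells, 10.8 and 6.26 for B cells, 10.5 and 4.25 for endothelial cells, and 17187 and 22003 for macrophages. Most of the macrophage sum was Lyz2, at 12817 and 18376 FPKM in replicates 1 and 2. Without Lyz2, the macrophage sum was higher in replicate 1. The part of these cell types in the difference between the libraries was not tested.

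**Figure D4:**
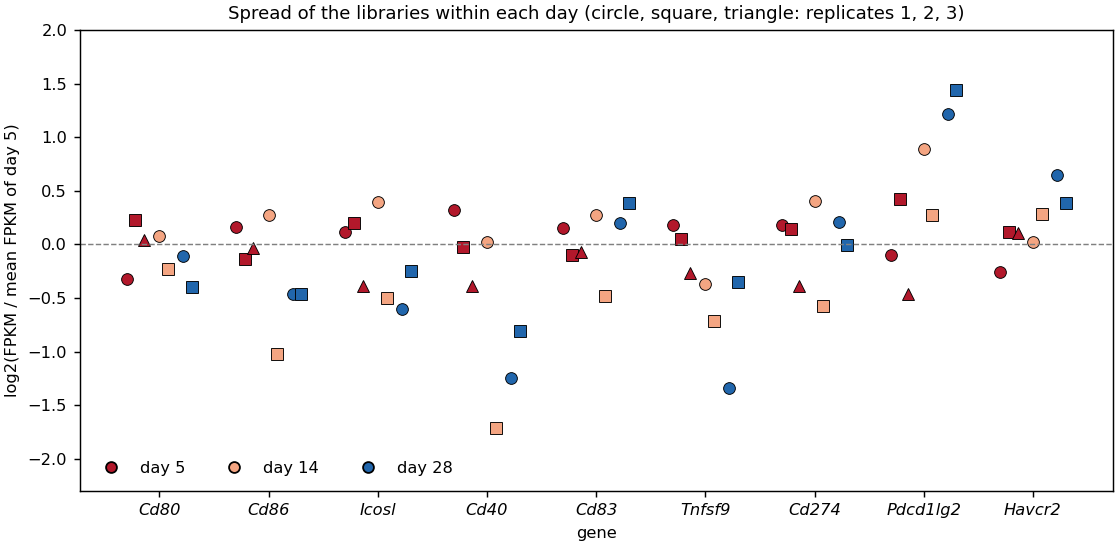
Log2 of the FPKM in each library over the mean FPKM of day 5 (y axis) for the 9 genes (x axis), coloured by day, with circles, squares and triangles for replicates 1, 2 and 3. For 8 of the 9 genes the day 14 circle lies above the day 14 square, most of all for Cd40 and Cd86.

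For Cd86 and Cd40, the day 14 library used decided the direction. Without day 14 replicate 1, the log2 fold changes from day 5 to day 14 were -1.01 for Cd86 and -1.70 for Cd40, both called by edgeR (adjusted p = 0.00206 and 0.00291). Without day 14 replicate 2 they were 0.28 and 0.03 and were not called (adjusted p = 0.383 and 0.975). Between days 14 and 28 the reverse held: 0.56 for Cd86 and 0.70 for Cd40 without replicate 1 (adjusted p = 0.219 and 0.425), and -0.73 and -1.03 without replicate 2 (adjusted p = 0.0175 and 0.0457). In each of these fits day 14 was represented by 1 library, which was assumed to vary like the other groups.

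The receptors on lymphocytes that the members or the related ligands described above bind had low levels. Of 12 such genes, 7 were tested and 0 were called by edgeR, DESeq2 or limma between any days, while 1 had an unadjusted p under 0.05 between days 28 and 5. Pdcd1, which encodes PD-1, had 6 to 14 fragments per library, Ctla4 0 to 13, and Cd40lg 0 to 1. A count of 3 fragments was taken as the limit of detection, which covers counting error only. Mean FPKM of Cd28 over time was 0.565, 1.41 and 0.781, and that of Icos 0.263, 0.422 and 0.48. The most abundant were Tnfrsf9, the receptor 4-1BB (3.6, 3.09 and 2.18 FPKM, 73 to 261 fragments per library), and Lag3 (1.31, 2.53 and 2.59 FPKM, 36 to 128 fragments).

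Inhibitory receptors that myeloid cells carry, as they carry TIM-3, were abundant and mostly not called. Of 9 genes tested, 1 rose and 1 fell between days 5 and 28, and edgeR called none in the other comparisons, while DESeq2 called 1, Siglece, lower at day 28 than at day 14. Lilrb4 was at 659, 516 and 614 FPKM, Sirpa, the receptor of CD47, at 343, 341 and 290 FPKM, and Clec12a at 104, 111 and 104 FPKM, with no call. Cd200r1, the receptor of CD200, rose from 28.9 to 43.8 FPKM (log2 fold change 0.62, SE 0.15, edgeR adjusted p = 0.0253). Siglece, a sialic acid receptor, fell from 9.8 to 5.42 FPKM (-0.84, SE 0.20, adjusted p = 0.0232). The calls of Cd200r1 and Siglece were kept in 4 and 3 of the 7 fits without 1 library, with adjusted p up to 0.198 and 0.119.

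Interferon gamma is a textbook inducer of Cd274, Cd40 and Cd86, and the genes of its pathway were read as a group of 11, all tested. Between days 5 and 28, 2 fell and 1 rose, and 9 of 11 had a lower estimate at day 28 (median log2 fold change -0.37, all genes 0.03). Irf9, a transcription factor of interferon signalling, fell from 34.3 to 22.3 FPKM (log2 fold change -0.61, SE 0.13, edgeR adjusted p = 0.0176). Ciita, the master regulator of MHC class II genes, rose from 2.14 to 8.3 FPKM (1.96, SE 0.15, adjusted p = 5.41e-04), and was already called between days 5 and 14 (1.72, adjusted p = 0.00475). Ciita was called in all 7 fits without 1 library in both comparisons, and Irf9 in 5 (adjusted p up to 0.0889). The receptor genes Ifngr1 (97.8 and 85.7 FPKM at days 5 and 28) and Ifngr2 (96 and 73.8 FPKM), and Irf1 (113 and 81.1 FPKM) and Irf8 (86.6 and 64.6 FPKM), were not called.

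Adhesion molecules that hold a T cell to the presenting cell were the last group, with 11 of 12 tested. Between days 5 and 28, 2 rose and 1 fell (median log2 fold change 0.14). Icam1, the ligand of the integrin LFA-1, fell from 225 to 122 FPKM (log2 fold change -0.87, SE 0.20, edgeR adjusted p = 0.0216). Alcam, the ligand of CD6, rose from 19.1 to 42.3 FPKM (1.16, SE 0.23, adjusted p = 0.0109), and Slamf8, a SLAM family receptor of macrophages, from 5.27 to 12.5 FPKM (1.25, SE 0.23, adjusted p = 0.00924). The calls of Icam1, Alcam and Slamf8 were kept in 3, 5 and 5 of the 7 fits without 1 library (adjusted p up to 0.16, 0.106 and 0.0578). Itgb2 (483, 560 and 651 FPKM at days 5, 14 and 28), Cd84 (114, 126 and 152 FPKM) and Cd48 (115, 117 and 97.9 FPKM) were not called.

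**Figure D5:**
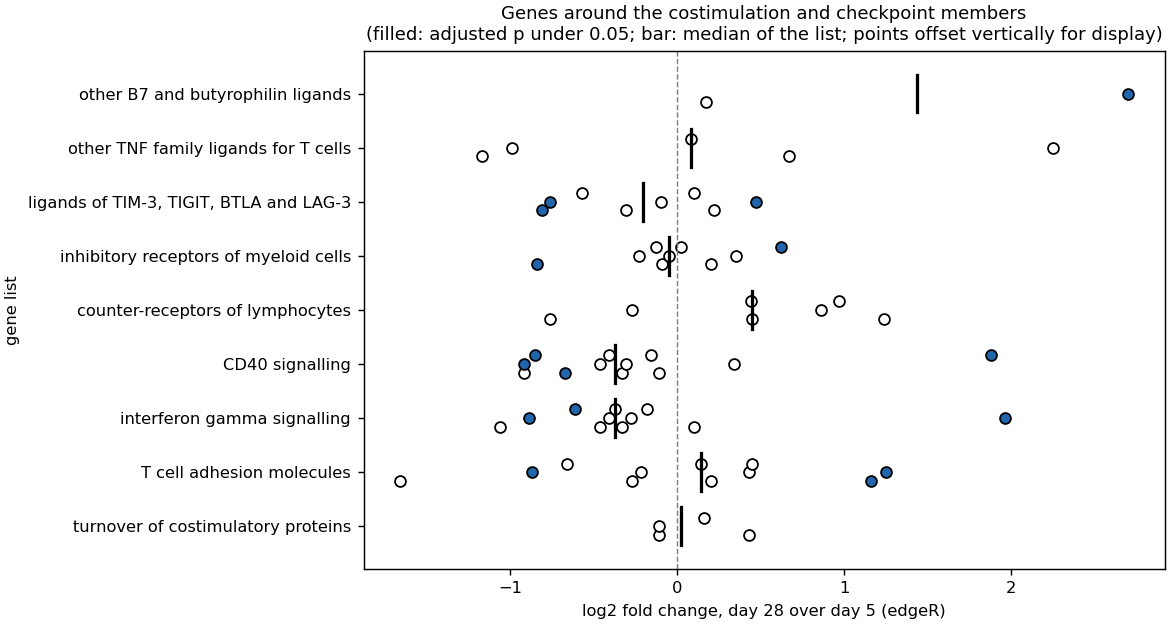
Log2 fold changes from day 5 to day 28 (x axis, edgeR) of the tested genes in each list of related genes (y axis). Filled circles were called at an adjusted p under 0.05, open circles were not, and bars are list medians, which were -0.37 for both CD40 signalling and interferon gamma signalling.

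Across the 7 libraries, the members did not move as 1 group. The Pearson r of log2 CPM was 0.93 between Cd86 and Cd40 and 0.84 between Cd40 and Icosl. Havcr2 ran against Cd40 (-0.80) and Tnfsf9 (-0.87), and Cd80 had no r above 0.37 with any other member. Cd274 was closest to Cd83 (0.76), and r between the neighbours Cd274 and Pdcd1lg2 was 0.48. These correlations over 7 points that share time point, depth and the split of day 14 are descriptions and were not tested.

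The genes whose pattern was most like that of each member were sought among 7556 genes with a mean of at least 5 FPKM, by the same r over the 7 libraries. Cd40 was matched most closely, by Rbm47 (0.996), Slc11a2 (0.996) and Sfmbt1 (0.994). The closest to Cd86 were Cd163 (0.971), Dirc2 (0.968) and Ccl4 (0.963), and to Icosl Gramd1a (0.977), Lrch3 (0.972) and Rasa4 (0.963). Those of Havcr2 were Stk38 (0.988), Idh3a (0.982) and Anp32e (0.981), and those of Tnfsf9 were Phrf1 (0.977), Psap (0.976) and Rbm15 (0.974). Cd83 was closest to Prosc (0.975), Zbtb17 (0.924) and Fabp4 (0.923), Cd274 to Wasl (0.970), Aebp2 (0.962) and Fnbp1l (0.958), and Cd80 to Pnpt1 (0.952), Araf (0.942) and Cdkn2d (0.933). On log2(FPKM + 1) values the r of Cd274 with Wasl and Aebp2 was 0.804 and 0.793, and that of Cd80 with Araf 0.697, while the other pairs differed by at most 0.004. Pdcd1lg2, with a mean of 1.02 FPKM, was not searched.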

How the data were processed

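RNASeq libraries came from sorted macrophages at days 5 (3 libraries), 14 (2 libraries) and 28 (2 libraries). Per the methods and the submitters' processing notes, reads were trimmed (cutadapt 1.8), mapped to mm10 (TopHat2 2.0.13) and quantified per gene (Cuffdiff 2.2.1). The expected counts deposited by the authors are fragments per gene before scaling. A signal column, also deposited, holds these fragments scaled between libraries. The authors' FPKM values adjust for transcript length as well. The use of strand and the sharing of reads between copies of a gene are not given in the sources used here.

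Expected counts, 1.49% of which were not whole, were rounded and compared in edgeR 4.0.16 (R 4.3.3) by the quasi-likelihood F test. Libraries were normalized by TMM, low genes removed by the filter of edgeR, and p values adjusted by Benjamini-Hochberg over 12858 genes in each of 3 comparisons. The 7 libraries shared a single fit whose factor was the time point. An adjusted p under 0.05 was called. SE and 95% intervals, obtained from the F values, are approximate. Pearson r used log2 CPM with a prior count of 2. DESeq2 1.42.0 and limma 3.58.1 served as alternatives. Library totals of 18027190 to 35247116 fragments set the precision, and a floor of 3 fragments covers counting error only. On simulated fragments (12606 genes, day 14 vs day 5, 200 changed), edgeR recovered 100 of 100 genes changed by 2 log2 units and 89 of 100 changed by 1, with 9 false calls among 198. The simulated libraries were independent draws around the fitted trend of the spread, without the split of day 14. Only genes above a minimum mean level, which Pdcd1lg2 did not reach, were changed. These shares therefore do not give the power of the tests on the real libraries. Replicate numbers come from the labels, which do not say what they share.

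The members and the lists of related genes and cell type markers were chosen with earlier results of these data known. The genes reported by name were all members, the most abundant and the called genes of each list, and the 3 genes most like each member. A few items of the lists and motifs are not reported here. Gene positions are from GENCODE on GRCm38, and promoters from RefSeq. Python 3.11.15 with numpy 2.4.6, pandas 2.3.3, scipy 1.17.1 and matplotlib 3.10.9 was used for summaries and plots.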

Additional observations from a re-analysis of the deposited data

How the results depend on the processing

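The alternatives were DESeq2, RLE or cuffdiff scaling, no filter on low counts, limma on log2(FPKM + 1) or log2(FPKM + 0.1), a fit on the 2 time points compared, an adjusted p under 0.01, the replicate number as a block, and leaving out each library. When day 14 or day 28 lost a library, the lone one was assumed to vary like the other groups. The cause of the shifts was not tested.

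Members called between days 28 and 5, with all genes called in brackets, went from 2 (1960) to 4 (2466) without filter and 5 (2778) in the fit on 2 time points. They went to 1 with RLE (1943), cuffdiff scaling (1943) and both limma fits (1802 and 1744), and to 0 (597) at adjusted p under 0.01. Over the omissions of 1 library they ranged from 0 to 5, and from 0 to 2 in each of the other comparisons. Pdcd1lg2 was called in 10 of 16 alternatives (log2 fold change 0.68 to 1.61, adjusted p 0.00577 to 0.12), Havcr2 in 6 (0.39 to 0.66, 0.0164 to 0.28), Tnfsf9 in 7, Cd40 in 5 and Cd86 in 3. Both Pdcd1lg2 and Havcr2 kept their direction in all 16. Deviations of same-numbered libraries correlated at 0.402 and 0.058 between days 14 and 5 and at -0.138 between days 28 and 14. For days 28 and 5 the values were -0.0491 and 0.0287. In a day with 2 libraries the deviations mirror each other, so these values cannot settle whether a shared number marks a pair. The main fit did not use the numbers. The block left 2 residual degrees of freedom to estimate the spread, against 4 in the main fit. With the replicate block, 0 members were called (Pdcd1lg2 adjusted p = 0.12, Havcr2 0.101, edgeR), and 1 gene each of the TIM-3 ligand, myeloid inhibitory receptor, CD40 signalling and adhesion lists. Of the genes named from the lists, the block ended the calls of Cd276, Traf5, Map3k14, Ciita, Cd4 and Mmp8 between days 14 and 5. Between days 28 and 5 it ended those of Tnfrsf14, Lgals3, Cd200r1, Nfkb2, Relb, Birc3, Alcam and Slamf8. Also ended in that comparison were the calls of Ccr7, Socs2, Cd14, Cd2, Cd4, Siglec5, Mbp and Tek. The CD40 signalling list, with 2 calls between days 14 and 5, gave 0 with the block and 5 without filter. With the day 28 numbers crossed, chosen after seeing the data, 3 members, 1 counter-receptor gene, and 357, 63 and 1579 of all genes were called.

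All genes called between days 14 and 5 numbered 614, against 1392 with DESeq2, 1429 without filter, 252 and 277 with limma, 315 in the fit on 2 time points, 6 with the replicate block, 24 at adjusted p under 0.01, and 52 to 1728 over the omissions. Between days 28 and 14 there were 8, against 346 with DESeq2, 390 without filter, 0 with both limma fits, the 2 time points, the block and the stricter p, and 0 to 629 over the omissions. For days 28 and 5 there were 1960, against 735 with the replicate block, 597 at adjusted p under 0.01 and 452 to 2746 over the omissions. The TNF ligand list, with 0 calls, gave 1 with DESeq2 and both limma fits and 2 without filter or on 2 time points. The adhesion list, with 3, gave 5 and 6 without filter and on 2 time points, the counter-receptors 1 without filter, and the turnover genes 1 on 2 time points.

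Estimates near 0 changed sign. Between days 14 and 5, Cd274 (0.00) was -0.01 with DESeq2, RLE and cuffdiff scaling, -0.06 with limma, -0.22 with the block and -0.20 with it crossed, and Icosl (0.02) was -0.03, -0.16 and -0.20 with limma and both blocks. For days 28 and 5, Cd274 (0.12) was -0.05 with the block and -0.03 with it crossed. Reversals on leaving out 1 library were all in estimates that were not called. Between days 14 and 5 the values over the omissions were Cd80 -0.21 to 0.09, Cd86 -1.01 to 0.28, Cd40 -1.70 to 0.03, Cd83 -0.47 to 0.28, Cd274 -0.56 to 0.41 and Icosl -0.49 to 0.40. Between days 28 and 14 the values over the omissions were Cd86 -0.73 to 0.56, Cd40 -1.03 to 0.70, Cd274 -0.29 to 0.68, Icosl -0.81 to 0.08 and Tnfsf9 -0.81 to 0.18. Between days 28 and 5 the values over the omissions were Cd274 -0.04 to 0.22. At 33 to 57 fragments, counting error limits Pdcd1lg2 at day 5.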
